A study of Mus musculus with 88 samples.

Results

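The bed nucleus of the stria terminalis (BNST) was compared between control mice of the inbred strains labelled DBA/2Crl (D2) and C57BL/6Crl (B6), which the study's methods name DBA/2NCrl and C57BL/6NCrl. None of these mice had been exposed to chronic social defeat stress. Every BNST library labelled as a control was used, 5 from D2 and 5 from B6 mice, which is 10 of the 28 BNST libraries and 10 of the 88 libraries of the series. All were males aged 8 weeks without a transgene or drug, and each library came from a different mouse. Per the study's methods, control mice lived beside another control behind a divider during the defeat period and were single-housed from then until dissection, 6 to 8 days after the last session. Defeated mice were sorted by social avoidance into susceptible (5 D2 and 5 B6 in the BNST) and resilient (3 D2 and 5 B6), and controls were also dissected for the medial prefrontal cortex (mPFC, 6 D2 and 6 B6) and ventral hippocampus (vHPC, 6 D2 and 6 B6). These groups serve to see whether the strain difference of the BNST controls was present in other mice and other tissue, and the defeated BNST mice also entered the filter and the estimate of the spread behind the control comparison.

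The BNST is a small limbic forebrain nucleus made mostly of inhibitory GABA neurons, which links the amygdala with hypothalamic and brainstem centres and is known for its part in sustained anxiety and stress hormone release. Mice of an inbred strain are genetically nearly identical, so a comparison of the strains covers every locus at which they differ at once, whether a gene is lost, duplicated or regulated differently. The reads of both strains were aligned to GRCm38, a genome assembled from C57BL/6J, and what this does to the counts of D2 reads was not tested.

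The 10 libraries held 12389258 to 16362207 counts, and the normalization factors of the trimmed mean of M values (TMM) ranged from 0.807 to 1.22. Genes of the mitochondrial genome took 8.6 to 30.8% of the counts. D2 control replicate 2 stood apart: it had the lowest factor and the highest mitochondrial share, and its median correlation with the other D2 controls was 0.863 on the log2 scale of CPM, the counts per 1000000 counts of the library, against 0.93 to 0.966 for the other D2 controls. The median correlation of D2 control replicate 2 with the B6 controls was 0.877, higher than with its own strain. The same held for D2 control replicate 1 (0.948 with B6 and 0.937 with D2). D2 replicates 3 to 5 and the B6 controls correlated more with their own strain. Each strain had 3 libraries in preparation set 1 and 2 in set 2. Of the mouse IDs, 3 of 5 D2 and no B6 controls carried a prefix with the number 6 (D2 replicates 3 to 5), and what the prefix stands for is not given in the sources used here. The tissue label was checked with 22 markers of BNST and other subpallial GABA neurons, all of which passed the filter on low counts, with a mean level over the list of 4.32 to 4.95 log2 CPM in B6 and 3.94 to 5 in D2. Markers of striatal projection neurons lay higher, at 7.12 to 8.01 and 5.84 to 7.86. Gad1, which makes GABA, was at 439 ± 68.8 CPM in B6 and 552 ± 71.6 CPM in D2 (SD, n = 5 each), and Slc32a1, which loads GABA into vesicles, was at 239 ± 79.6 and 197 ± 90.3 CPM. More specific markers were lower, with the peptide Crh at 3.49 ± 2.25 and 3.85 ± 4.35 CPM and the estrogen receptor Esr1 at 3.28 ± 1.22 and 3.18 ± 2.66 CPM.

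Of 17515 genes tested, 439 differed between D2 and B6 controls at an adjusted p under 0.05, 2.51% of all (edgeR's quasi-likelihood test with Benjamini-Hochberg adjustment). Of these, 241 were lower in D2 (1.38% of genes tested) and 198 of the 17515 were higher. The differences were large where they were called: the median size was 1.74 on the log2 scale, and 331 of the 439 genes differed by more than 1. For 349 of the called genes the 5 D2 values did not overlap the 5 B6 values, as was the case for 598 of all genes tested (3.41%). The called genes were not the abundant ones, with a median of 5.36 CPM against 15 CPM over all genes tested, and 75 of them lay under 1 CPM. A gene silent in either strain passed the filter only through the other strain. Without D2 control replicate 2 the count was 483, and 372 of the 439 genes were called again. When only the 10 control libraries were fitted, with the same genes tested, 221 genes were called. With only the 2 D2 controls of the other ID prefixes it was 939, of which 294 were among the 439.

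**Figure D1:**
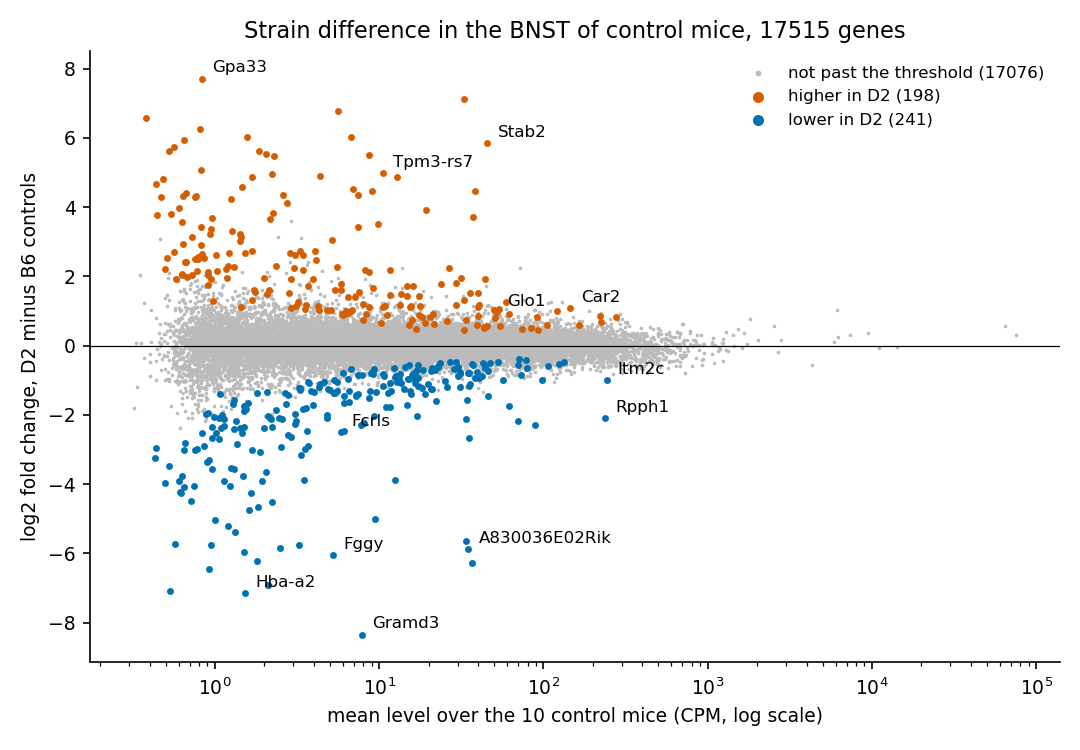
Each point is a gene, with its mean level over the 10 BNST control mice in CPM on a log axis and its log2 fold change, D2 minus B6, on the vertical axis. The 198 genes higher and 241 genes lower in D2 are coloured, and Stab2, at 45.4 CPM, is the most abundant of the called genes that differ by more than 4. The fitted value of a gene without counts in a strain, such as Gpa33, depends on the prior count.

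Ranked by the log2 fold change times -log10(p), the first gene higher in D2 was Stab2, which encodes stabilin-2, a scavenger receptor for hyaluronan (chromosome 10, 86841198 to 87008025, GRCm38). The 5 B6 mice had 2.19, 1.39, 1.47, 1.35 and 1.33 CPM, and the 5 D2 mice had 72.8, 60.4, 74.8, 138 and 100 CPM. No D2 mouse came near any B6 mouse, and D2 control replicate 2 was the lowest of its strain. The log2 fold change was 5.84 ± 0.32 (SE, edgeR's quasi-likelihood test, adjusted p = 1.08e-12). Its exons overlap a gene on the other strand. Gpa33, a cell surface glycoprotein of the intestinal epithelium, had no count in any B6 control and 122 counts over the 5 D2 controls, so it was at least 40.9-fold higher in D2 when a floor of 3 counts over the B6 group is used. Rprl3, a small RNA gene resembling the RNA of ribonuclease P (chromosome 8, 3803069 to 3803358), lay at 0.181 to 0.701 CPM in B6. Its D2 values were 68.8, 2, 99.3, 55.2 and 101 CPM, with replicate 2 far below the rest of D2 but still above B6. Rpph1, the ribonuclease P RNA itself (chromosome 14, 50807449 to 50807767), went the other way, with 233 to 642 CPM in B6 and 141, 11.8, 112, 113 and 70.2 CPM in D2 (log2 fold change -2.09 ± 0.53, adjusted p = 0.0278). In the search for near-identical copies described below, neither of these genes had one. The pair is still uncertain where reads of related RNAs could be split between their genes.

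The other 7 of the 10 genes ranked highest were Tpm3-rs7, Gm10260, Rpl3-ps1, Gm8210, Hmga1b, Rpsa-ps10 and Gm9825. The annotation lists 4 of them as processed pseudogenes and 3 as protein coding, and it holds a near-identical copy of each, such as the ribosomal protein genes Rps18 for Gm10260 and Rpl3 for Rpl3-ps1. Such a copy was defined as another gene, elsewhere in the genome, whose transcript matched the longest transcript of the gene at 95% identity or more over at least 50% of its length. How closely a copy and its source resemble each other is shown by 3 pairs, each as 120 bases of the coding sequence of the source and the matching bases of the copy, from GENCODE M21 on GRCm38, with the bases at which the members differ in capitals. Tpm3 encodes a tropomyosin of the actin cytoskeleton, Rpsa a protein of the small ribosomal subunit and Rnps1 a splicing factor.
Tpm3: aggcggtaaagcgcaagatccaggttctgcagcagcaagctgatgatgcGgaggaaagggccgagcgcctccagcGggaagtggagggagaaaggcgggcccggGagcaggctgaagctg
Tpm3-rs7: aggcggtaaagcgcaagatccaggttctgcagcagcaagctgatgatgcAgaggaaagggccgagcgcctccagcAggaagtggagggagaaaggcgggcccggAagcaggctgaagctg
Rpsa: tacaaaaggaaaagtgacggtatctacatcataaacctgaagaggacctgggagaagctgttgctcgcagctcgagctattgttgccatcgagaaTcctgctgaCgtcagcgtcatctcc
Rpsa-ps10: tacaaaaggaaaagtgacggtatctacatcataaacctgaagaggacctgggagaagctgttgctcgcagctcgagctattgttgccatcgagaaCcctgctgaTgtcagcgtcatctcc
Rnps1: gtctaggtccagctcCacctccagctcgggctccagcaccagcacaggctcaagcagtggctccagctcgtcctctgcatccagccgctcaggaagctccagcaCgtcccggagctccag
Gm9825: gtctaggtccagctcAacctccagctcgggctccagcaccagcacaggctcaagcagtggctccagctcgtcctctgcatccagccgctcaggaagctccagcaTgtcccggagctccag
The stretches differ at 3, 2 and 2 bases. Sequences of D2 were not analysed here, and from which member of a pair the D2 reads came was not tested.

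Tpm3-rs7 (chromosome 14, 113314608 to 113316754) and Tpm3 (chromosome 3, 90072649 to 90100902) moved in opposite directions. Tpm3-rs7 was at 0.397, 0.794, 0.828, 0.375 and 0.785 CPM in B6 and at 19.9, 25.5, 16.1, 21.2 and 19.2 CPM in D2. Tpm3 was at 48.9, 49.9, 50.7, 49.1 and 54.3 CPM in B6 and at 28.9, 21.5, 26.8, 30.3 and 23.7 CPM in D2. Neither gene overlapped between the strains, with log2 fold changes of 4.97 ± 0.29 for Tpm3-rs7 and -0.95 for Tpm3 (adjusted p = 2.8e-12 and 1.58e-05, edgeR's quasi-likelihood test). Summed, the pair was at 51.2 ± 2.34 CPM in B6 and 46.6 ± 3.73 CPM in D2. The summed difference was -0.14 on the log2 scale, and it did not pass the threshold after adjustment over 59 pairs (exact permutation test, two-sided, p = 0.0476, adjusted p = 0.134). Rpsa-ps10 rose from 0.695 ± 0.218 to 14.1 ± 6.46 CPM (chromosome 3, 150072658 to 150073542), whereas Rpsa (chromosome 9, 120127689 to 120132369) was at 56.9 ± 8.47 CPM in B6 and 34.4 ± 11.1 CPM in D2 (log2 fold change -0.73, adjusted p = 0.0144). Their sum was 57.5 ± 8.62 and 48.5 ± 17.3 CPM. Gm9825 (chromosome 6, 7982541 to 7983383) rose from 0.286 ± 0.144 to 5.18 ± 1.05 CPM, and Rnps1 (chromosome 17, 24414565 to 24425901) fell by 0.68 on the log2 scale (adjusted p = 0.015). Hmga1b and Hmga1, which encode a chromatin protein, were at 0.79 and 27.5 CPM in B6 and at 17.4 and 10.4 CPM in D2, and their sums were 28.3 ± 6.1 and 27.8 ± 13.1 CPM. Rpl3-ps1, in contrast, reached 16.9 CPM in D2 while Rpl3 was at 52.3 ± 7.01 and 51.9 ± 13.1 CPM.

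Genes with such a copy were frequent among those higher in D2. They made up 63 of the 194 searched genes that were higher in D2 (32.5%), 18 of the 241 that were lower (7.47%) and 706 of the 17448 searched genes tested (4.05%). The match had to cover the gene's own longest transcript, so a short pseudogene can have a copy by this rule while its longer source has none. Rnps1 and Atp6v0c, the sources of Gm9825 and Atp6v0c-ps2, counted as genes without a copy. How much of the difference between the shares comes from this was not tested. Processed pseudogenes, which arise from reverse-transcribed messenger RNA, gave 47 of the higher and 7 of the lower genes, and 2.78% of genes tested were of this kind. Protein coding genes gave 113 of the higher (57.1%) and 178 of the lower genes (73.9%), and 80% of genes tested were protein coding. For 59 of the 63 genes the copy was tested too. The called genes had a median log2 fold change of 3.01, their copies of -0.21 and the summed pairs of 0.04, which was also the median of all genes tested. Where a copy is far more abundant than the called gene, the sum lies near the copy whatever the called gene does. This was so for Gm14513 and Rps3, at 3.1 and 60.7 CPM in D2, and for many other pairs. The median of the sums therefore does not tell from which member the D2 reads came. Of the copies, 40 lay lower in D2, and 12 of them passed the test, while 2 copies passed it upward. The sums of 11 of the 59 pairs (18.6%, against 3.41% of all genes tested) did not overlap between the strains. These 11 passed the threshold after adjustment over the 59 pairs (exact permutation test), and the differences of all sums ranged from -1.96 to 1.3. Without D2 control replicate 2, 60 genes with a copy were higher and 16 were lower in D2.

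**Figure D2:**
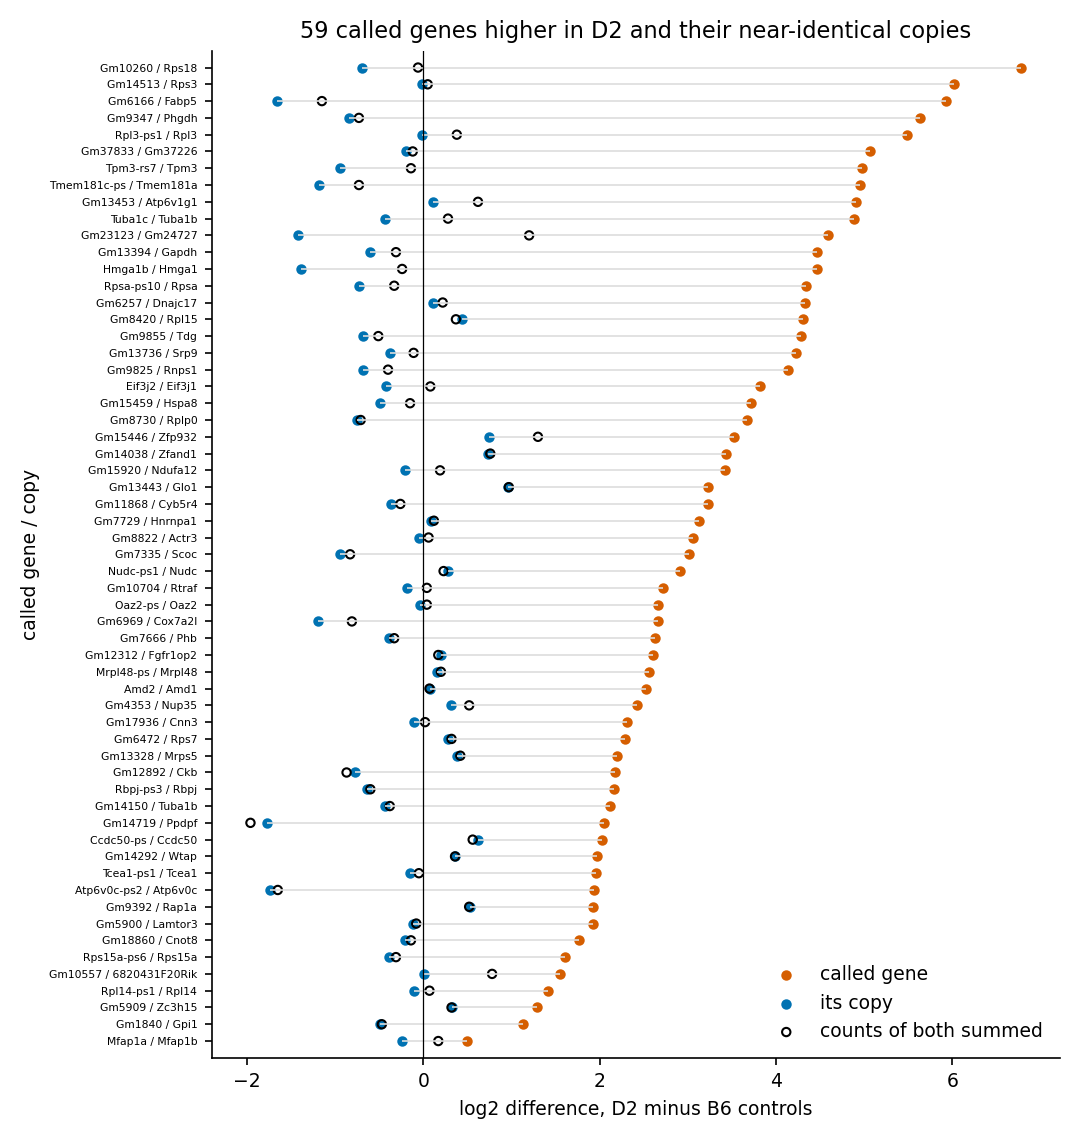
Each row is a gene called higher in D2 (orange) with its near-identical copy (blue), and the open circle gives the pair with both counts summed. The horizontal axis is the log2 difference, D2 minus B6 controls, from the fit for the genes and copies and from mean log2 CPM for the sums. The 59 called genes have a median of 3.01 and the sums a median of 0.04. A sum lies near its copy where the copy is far more abundant than the called gene.

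Among the genes lower in D2, Gramd3 ranked first. It encodes a GRAM domain protein (chromosome 18, 56400337 to 56503792) and was at 15.4, 12.1, 15.3, 12.7 and 22.3 CPM in B6. In D2 it had 3 counts over all 5 mice against 1195 in B6, a ratio of levels of 396 (95% counting interval 135 to 1920, which covers counting error only). Its neighbour Aldh7a1, which encodes a dehydrogenase of lysine breakdown (chromosome 18, 56509687 to 56572951), was lower by a smaller amount, with 50.3, 56.1, 54.1, 46.1 and 65.2 CPM in B6 and 29.5, 26.5, 29, 26.9 and 35.7 CPM in D2 (log2 fold change -0.88 ± 0.13, adjusted p = 4.5e-05, edgeR's quasi-likelihood test). Its exons overlap those of a gene on the other strand. Fggy, a carbohydrate kinase (chromosome 4, 95557507 to 95926939), lay at 7.88 to 13.8 CPM in B6. The D2 mice had 0, 0, 0.0585, 0.668 and 0.0538 CPM, and the log2 fold change was -6.05 ± 0.52. Tnnt2, the cardiac form of troponin T, was at 2.78 to 4.3 CPM in B6 and had 3 counts in all in D2.

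Of the other 7 of the 10 genes ranked lowest, 6 were noncoding or unclassified transcripts, namely 1500004A13Rik, A830036E02Rik, 6820402A03Rik, Gm43305, Gm9989 and 4930458D05Rik. 1500004A13Rik lay among the more abundant called genes, with 64.8 to 80.9 CPM in B6 and 0.702 to 1.42 CPM in D2 (log2 fold change -6.29 ± 0.35). A830036E02Rik (chromosome 11, 99416956 to 99425497) lay at 51.5 to 82.6 CPM in B6 and 0.281 to 2.21 CPM in D2, and its exons overlap a gene on the other strand. The sources used here do not state whether counting used the strand, so reads of such partners cannot be told apart. The last, Hba-a2, a hemoglobin alpha chain, had 231 counts in B6 and 1 in D2, a ratio of 230 (95% counting interval 40.8 to 9110). Its near-identical copy Hba-a1 was at 3.76 ± 2.01 CPM in B6 and 3.86 ± 2.1 CPM in D2, and the beta chain Hbb-bs at 41.8 and 68.8 CPM, neither of which passed the test.

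**Figure D3:**
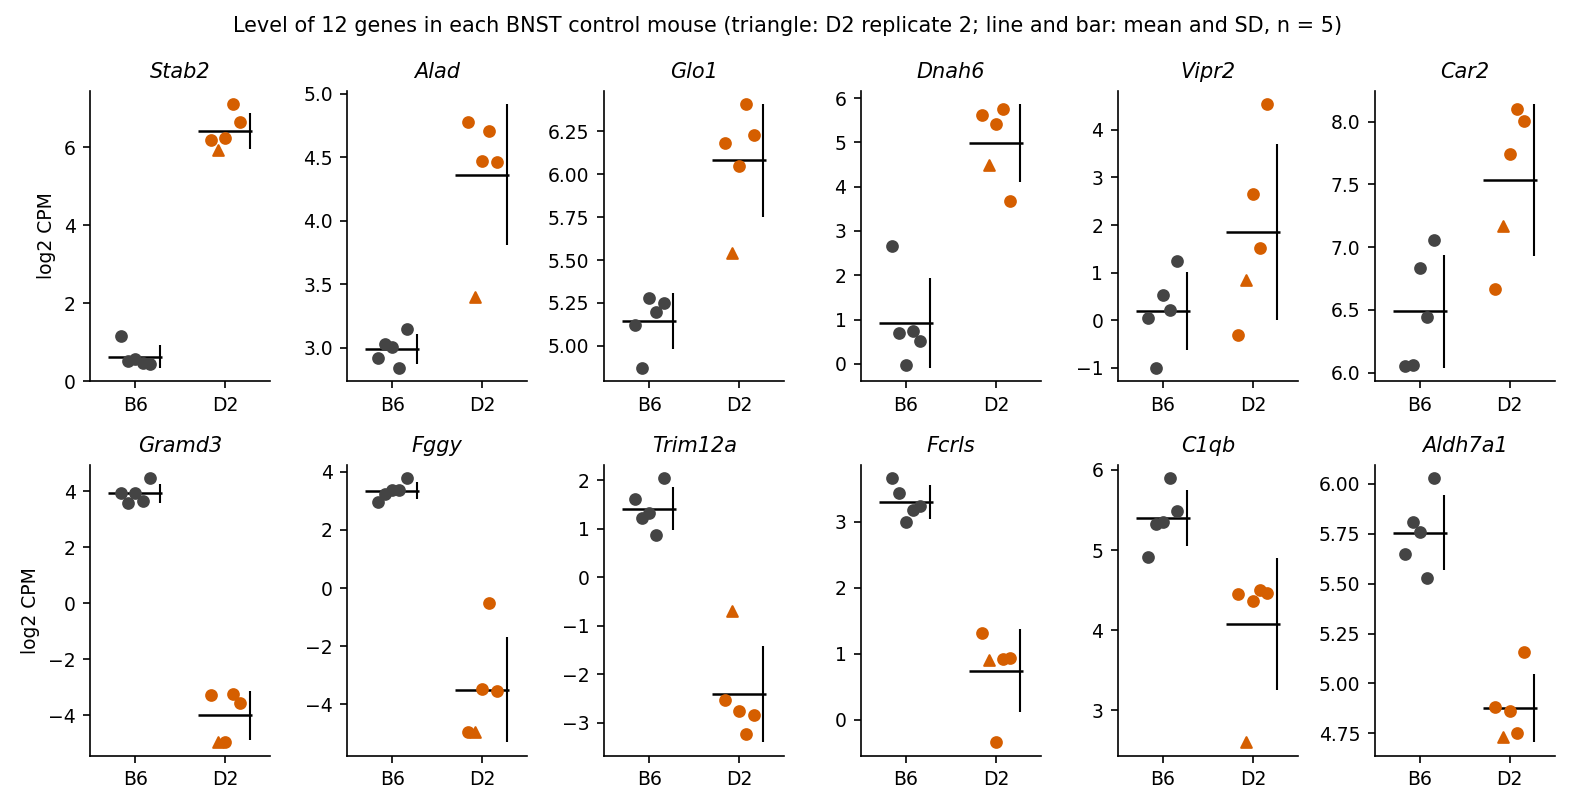
Each panel gives a gene's log2 CPM (prior count 0.5) in the 5 B6 and 5 D2 control mice, with the mean as a line and the SD as a bar. D2 control replicate 2 is drawn as a triangle. In Stab2, Dnah6, Gramd3, Fggy, Trim12a, Fcrls, C1qb and Aldh7a1 the strains do not overlap, whereas in Vipr2 and Car2 they do.

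A list of 10 genes known to vary between the strains gave 7 that were tested. Alad, which makes porphobilinogen for heme, was higher in D2, with 7.12 to 8.87 CPM in B6 and 21.9 to 27.4 CPM in 4 of the D2 mice. Glo1, the glyoxalase that removes methylglyoxal, was at 34.7, 29.2, 38.9, 36.8 and 37.9 CPM in B6 and at 72.3, 46.5, 66.3, 84.9 and 75 CPM in D2. Both are known for a duplication in D2, and neither overlapped between the strains (log2 fold changes 1.44 ± 0.2 and 0.96 ± 0.14, adjusted p = 2.12e-05 and 5.37e-05). In each, D2 control replicate 2 was the lowest D2 mouse, in Alad well below the other 4. The median of the 7 was 0.05. The other 5 did not pass the test. Kcnj9, a G protein-gated potassium channel, had 25.5 ± 4.31 CPM in B6 and 45.2 ± 28.5 CPM in D2 (adjusted p = 0.208), with D2 control replicate 2 the lowest at 15.7 CPM and replicate 5 the highest at 91.6 CPM. Its log2 fold change of 0.83 became 1.05 without replicate 2 (adjusted p = 0.0292) and 0.4 without replicate 5 (adjusted p = 0.553). Mpdz, Ahr and Myo5a had log2 fold changes of 0.05, -0.05 and 0.02.

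Genes of the immune system and of microglia differed in both directions. In the microglia list, 20 of 20 genes were tested, of which 3 were lower and 1 was higher in D2. This share was above the 2.51% called among all genes tested. Whether it exceeds what lists of this size give at random was not tested. The list median was -0.24 beside 0.04 over all genes. Fcrls, an Fc receptor-like protein of microglia (chromosome 3, 87250758 to 87263738), was at 7.9 to 12.6 CPM in B6 and at 2.46, 1.84, 0.761, 1.86 and 1.88 CPM in D2 (log2 fold change -2.5 ± 0.24, adjusted p = 6.36e-08, edgeR's quasi-likelihood test). C1qb and C1qc, subunits of the complement protein that starts the classical pathway and neighbours on chromosome 4, fell by 1.21 and 1.26 on the log2 scale. The C1qb values were 30.3 to 59.5 CPM in B6 and 21.8, 6.01, 20.7, 22.6 and 21.9 CPM in D2, so that 4 D2 mice lay close together and replicate 2 below them. Ctss, the protease cathepsin S, was higher in D2 (31.5 and 47.1 CPM, log2 fold change 0.58, adjusted p = 0.04). With a mouse left out its log2 fold change was 0.51 to 0.64, and the call was lost for 7 of the 10 mice (adjusted p up to 0.123). The other 16 microglia markers did not pass the test, and the mean level of the whole list had a median of 4.29 log2 CPM over the B6 and 3.91 over the D2 mice. In whole tissue, fewer cells of a type and less RNA per cell cannot be told apart.

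Of 17 tested genes of the major histocompatibility complex (MHC) and antigen presentation, 2 were higher in D2 and none was lower, with a list median of 0.08. The share called was above the 2.51% of all genes, but it rests on 2 genes. H2-Q6 lay at 0 to 0.302 CPM in B6 and 0.334 to 2.6 CPM in D2, and H2-T24 at 1.26 to 2.35 and 2.67 to 4.97 CPM. Both rest on few reads in a region of similar genes, and their adjusted p values were 0.0159 and 0.0336 (edgeR's quasi-likelihood test). With a mouse left out these went up to 0.0566 and 0.12, so both calls could be lost. In controls of the mPFC and vHPC, H2-Q6 was higher in D2 by 1.3 and 1.02 on the log2 scale. H2-T24 differed by -0.06 in the mPFC and was lower in D2 by 2.07 in the vHPC (limma, adjusted p = 5.3e-16). No library preparation set of the vHPC held controls of both strains, so the controls alone cannot tell strain from set there. Of 28 interferon-stimulated genes, with a median of -0.02, only Trim12a, a tripartite motif protein of an antiviral family, was called. It lay at 1.8 to 4.1 CPM in B6 and 0.14, 0.584, 0.117, 0.0743 and 0.108 CPM in D2 (log2 fold change -3.78 ± 0.46, adjusted p = 2.73e-06).

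Of signalling genes for which the BNST is known, the share called was near or below the 2.51% of all genes. Of 44 neuropeptides and their receptors, with a median of -0.18, 1 passed the test. This was Vipr2, a receptor for vasoactive intestinal peptide. The B6 mice had 0.463 to 2.35 CPM and the D2 mice 0.773, 1.75, 6.26, 2.82 and 23.3 CPM, so the strains overlapped and the D2 mean of 6.99 ± 9.37 CPM rested on replicate 5. The log2 fold change was 2.46 ± 0.66 (adjusted p = 0.0404) with that mouse and 1.2 (adjusted p = 0.374) without it, and with the 2 D2 controls whose ID prefix has 3 or 4 it was -0.02. No gene was called among 20 corticosteroid receptors and targets, 7 sex steroid signalling genes, 52 genes of GABA and glutamate transmission, 28 of monoamine signalling, 57 potassium channels, 20 clock genes and 22 immediate early genes. In that order their medians were -0.07, 0.23, 0.06, -0.09, -0.01, -0.19 and -0.54. Of 47 genes of glutathione and aldehyde detoxification, with a median of 0, Glo1 was higher and 2 were lower, a share above 2.51%. The lower genes were Aldh7a1 and the mitochondrial transhydrogenase Nnt (34.5 and 24.5 CPM, log2 fold change -0.49, adjusted p = 0.0208).

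In most lists of cell type markers, 0 or 1 gene was called, which for 20 to 30 genes is near the 2.51% of all genes. None of the 22 markers of BNST and subpallial GABA neurons passed the test, with a median of -0.04, nor did any of 20 striatal (median -0.47), 20 thalamic, 19 cortical and hippocampal excitatory (-0.27) and 10 hypothalamic markers (-0.1). The thalamic list had a median of 1.17 with 19 of 20 genes above 0, and the mean level of the list ran from 2.94 to 4.46 log2 CPM in B6 and from 2.72 to 6.2 in D2. D2 control replicate 5 was highest there and lowest in the striatal list, at 5.84 against 6.22 to 7.86 in the other D2 and 7.12 to 8.01 in the B6 controls. Of 30 genes of mature oligodendrocytes, the myelin-forming cells, 29 had a value above 0 with a median of 0.43, and only Car2 passed the test. The mean level of this list was 5.32 to 6.72 log2 CPM in B6 and 5.2, 5.32, 6.41, 6.87 and 6.91 log2 CPM in D2. The higher D2 values were those of replicates 3 to 5, the mice with the number 6 in their ID prefix. Car2, a carbonic anhydrase, was at 66.1, 66.5, 114, 86.6 and 134 CPM in B6 and at 102, 144, 214, 274 and 257 CPM in D2 (log2 fold change 1.09 ± 0.25, adjusted p = 0.0127). The strains overlapped, and D2 replicates 3 to 5, which carry the ID prefix with the number 6, were the highest. Against the other 2 D2 controls alone the log2 fold change was 0.4 (adjusted p = 0.374). No gene was called among 20 markers each of oligodendrocyte precursors (median 0.13), astrocytes (0.06) and endothelial cells (0.04), 14 of meningeal fibroblasts (0.23), 13 of the choroid plexus (0.16) and 9 genes of the mitochondrial genome (0.24). Of 7 blood genes, with a median of -0.1, Hba-a2 was lower, and 1 of 15 ependymal markers was called. This was Dnah6, a dynein heavy chain of motile cilia, at 6.29, 1.59, 0.956, 1.65 and 1.39 CPM in B6 and 49, 22.5, 42.8, 53.7 and 12.7 CPM in D2 (log2 fold change 3.92 ± 0.73, adjusted p = 0.00121), while the ependymal list as a whole had a median of 0.07.

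**Figure D4:**
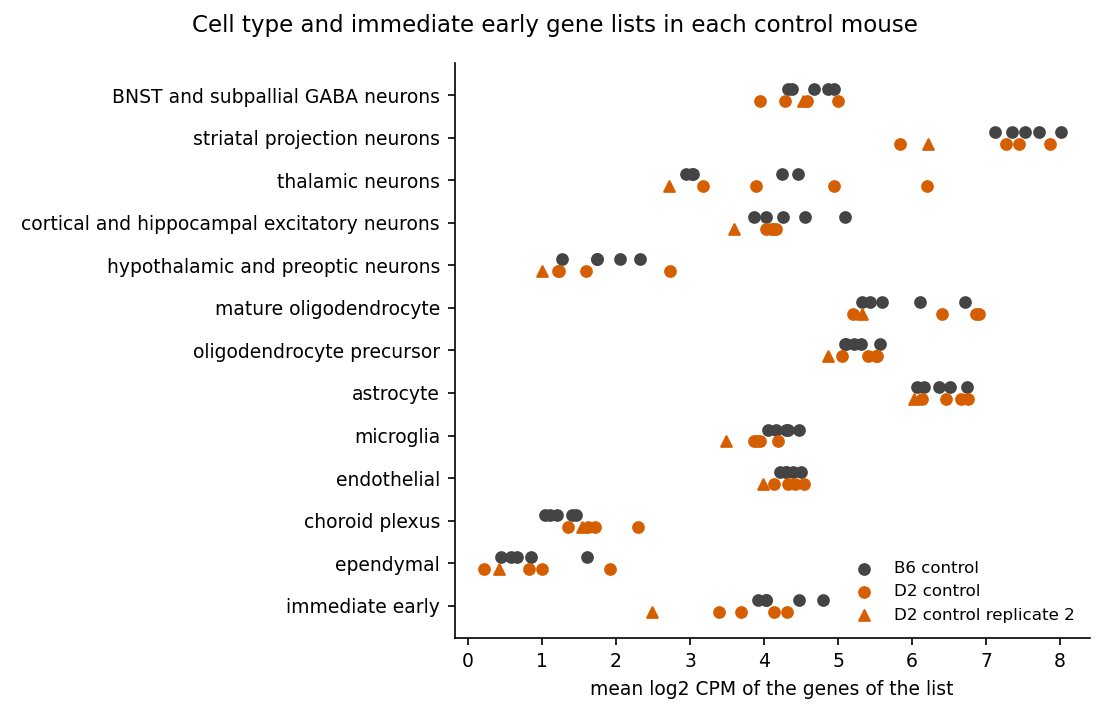
Each point is a mouse's mean log2 CPM over the tested genes of a list of cell type markers or immediate early genes, with B6 controls in grey, D2 controls in orange and D2 control replicate 2 as a triangle. The strains overlap in every list shown, and the thalamic list ranges from 2.72 to 6.2 within D2.

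The most abundant of the called genes changed less than the median called gene, apart from Rpph1. Downward, Itm2c, a membrane protein of neurons, was at 271, 337, 321, 444 and 247 CPM in B6 and at 229, 100, 174, 175 and 137 CPM in D2 (log2 fold change -0.99 ± 0.19, adjusted p = 0.00208). Arnt2, Mboat7 and Fam234b fell by 0.49, 0.54 and 0.6 on the log2 scale. Upward, the 5 most abundant were Car2, Erbin, Nap1l5, Ina and Ktn1, with log2 fold changes from 0.59 to 1.09. In Erbin, Nap1l5 and Ktn1 the highest value by far was that of D2 control replicate 2 (505, 561 and 298 CPM against at most 390, 247 and 189 CPM in the other D2 controls). Without that mouse their log2 fold changes went from 0.81, 0.86 and 0.59 to 0.65, 0.46 and 0.4, and none was called (adjusted p = 0.0924, 0.157 and 0.159). Their calls were also lost without any of several other mice, at log2 fold changes of at least 0.56. Ina, a neurofilament subunit, had 0.67 and 0.73 with and without D2 control replicate 2. Its call was lost without B6 control replicate 1 or 2 or D2 control replicate 5 (edgeR's quasi-likelihood test, adjusted p up to 0.0579). With only the D2 controls whose ID prefix has 3 or 4, the log2 fold change of Ina was 0.41 (adjusted p = 0.176).

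When neighbouring called genes whose starts were at most 1 Mb apart were joined, 233 of them fell into runs of 2 or more. How many genes drawn at random from those tested would fall into runs by this rule was not tested. Each run starts and ends at a called gene, and runs were ranked by their number of called genes. A high share of called genes within the top runs is therefore fixed by how they were built. The run with the most called genes spanned 0.996 Mb of chromosome 17 (23726336 to 24721929, GRCm38) and held 10 called genes of 42 tested (23.8%). Of these, 3 were higher (Prss41, Prss32 and Bricd5) and 7 lower, among them Atp6v0c, a subunit of the vesicular proton pump, the ribosomal protein gene Rps2, Rnps1, Pkmyt1, Rab26, Abca17 and Dnase1l2. Several genes of this run overlap other genes, and Prss41 and Prss32 overlap each other. Atp6v0c was at 53.8 to 139 CPM in B6 and 30.1, 4.67, 39.2, 29.7 and 38.4 CPM in D2, and differed by -1.74 on the log2 scale (adjusted p = 0.0456). With a mouse left out the difference was -1.88 to -1.46, and the call was lost for 9 of the 10 mice (adjusted p up to 0.131). Rps2 was at 42.7 to 59.8 CPM in B6 and 15.7 to 29.2 CPM in D2 (log2 fold change -1.16, adjusted p = 1.59e-05), and it too has a near-identical copy. A run on chromosome 7 (3609813 to 5057116) held 7 called genes of 49 tested, with Oscar, an immune receptor, falling from 3.78 to 0.293 CPM, Eps8l1, Tmc4, Mboat7 and Gm15510 also lower, and Rdh13 and Gm15494 higher. Runs of 7 on chromosomes 9 and 17 had as many called genes, and the first in genome order was taken.

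The run on chromosome 18 (36930184 to 37841873) held 8 called genes of 60 tested, all of them clustered protocadherins, cell adhesion proteins whose alternative promoters give neurons distinct surface identities. Of these 8, the 4 in the alpha and beta groups were higher in D2 and the 4 in the gamma group were lower. Tested were 14 alpha, 21 beta and 22 gamma genes, of which 14% were called, against 2.51% of all genes. The family was reached through this run of called genes, so its share is not independent of that choice. Pcdha1 was the lone alpha gene called. The medians over all tested members were 0.04, 0.36 and -0.22 in that order, beside 0.04 over all genes, so the groups as wholes differed little. Pcdhb3 was at 3.37 to 7.61 CPM in B6 and 9.13 to 18.1 CPM in D2 (log2 fold change 1.1, adjusted p = 0.00278), and Pcdha1, Pcdhb2 and Pcdhb8 were higher by 1.61, 0.94 and 1 on the log2 scale. Pcdhga11 was at 32.9, 37.2, 32.5, 32.7 and 31.8 CPM in B6 and at 9.34, 11.5, 11.4, 9.06 and 13.8 CPM in D2 (log2 fold change -1.6, adjusted p = 1.56e-08), with Pcdhgb6, Pcdhga3 and Pcdhga9 lower by smaller amounts. Genes of the alpha and gamma groups share their last exons, so their counts depend on how reads in shared exons were counted. Across the autosomes and chromosome X the share of genes called ran from 0.389% on chromosome 16 to 4.47% on chromosome 17.

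The same strain contrast was then read between other mice, whose libraries had shared in the spread of the fit but not in the difference between the controls. In susceptible BNST mice, where 907 genes were called (5.18% of genes tested, 1.62% higher and 3.56% lower in D2), 414 of the 439 genes had the same sign and 289 (65.8%) were called with it, which is 31.9% of the susceptible list. In resilient mice, with 272 genes called (1.55%, 0.816% higher and 0.737% lower), 428 had the same sign and 223 (50.8%) were called with it, or 82% of the resilient list. No gene of the 439 was called with the opposite sign in either. The count fell in both groups when some mice were left out, to 505 and 547 without D2 susceptible replicate 4 or 2. It was 200, 187 and 179 without D2 resilient replicate 1, 2 or 3. Without TMM factors 4764 genes were higher and 309 lower in susceptible D2 mice (284 and 623 with them), and 198 were higher and 78 lower in resilient D2 mice (143 and 129). No gene passed the threshold for a strain difference that was itself different from that in controls, in susceptible (0% called) or in resilient mice (0%). At an unadjusted p under 0.05 there were 2004 and 588 genes, and DESeq2 called 223 and 2 genes. With a mouse left out, the count in susceptible mice was 109 without B6 control replicate 4, 64 without D2 control replicate 5, 26 without B6 susceptible replicate 3 and 0 otherwise. Stab2 differed by 6.2 ± 0.32 in susceptible and 5.92 ± 0.33 in resilient mice, Fggy by -6.95 and -7.11, and Fcrls by -2.33 and -3.05. Vipr2 differed by 0.05 and 2.04, and Car2 by 0.02 and 0.46. Other called genes were also near 0 in susceptible mice, with -0.06 and 0.58 for Erbin, -0.02 and 0.41 for Ktn1, 0 and -0.05 for Ina and -0.39 and 0.39 for Nap1l5. Glo1 differed by 0.34 in susceptible mice (adjusted p = 0.181) and 0.83 in resilient mice (adjusted p = 0.00262).

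In the mPFC, 393 of the 439 genes were measured and 308 (78.4%) were called with the same sign, where 27.8% of all genes were called (13.4% higher and 14.4% lower). In the vHPC, 335 of 394 (85%) were called with the same sign, against 59.3% of all genes (30.2% higher and 29.1% lower). Opposite calls numbered 16 and 29. These shares of the mPFC and vHPC lists were 5.85 and 2.89%. The regions differed in library kit and in the authors' normalization, and in the vHPC no library preparation set held controls of both strains. With the set as a term, estimated with the help of the defeated mice, 1643 genes were called in the vHPC. Over all 4 comparisons, 164 of the 439 genes were called with the same sign every time and 47 in none. Those 47 had a median size of 1.07 on the log2 scale.

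Genes with a near-identical copy that were higher in D2 differed less in the other regions than in the BNST. All were chosen by their call in the BNST controls. A choice of this kind alone tends to make the difference larger there than in groups not used for it. How much of the lower values elsewhere comes from this was not tested. These 63 genes had a median of 3.06 in BNST controls, 2.21 in susceptible and 2.8 in resilient BNST mice. The 53 of them measured in the mPFC had a median of 0.68 there and 2.91 in the BNST, and the 54 measured in the vHPC had 0.99 and 2.81. For called genes higher in D2 without a copy the medians were 1.42 in BNST controls, 0.53 in the mPFC and 1.01 in the vHPC, where 120 and 118 of them were measured. Gene by gene, the difference in the mPFC minus that in BNST controls had a median of -2.05 for genes with a copy and -0.64 for those without, and in the vHPC of -1.67 and -0.32. For the 17 genes with a copy that were lower in D2 and measured in the vHPC, the median was -1.39 there and in BNST controls. Tpm3-rs7 differed by 4.97 in the BNST, 0.69 in the mPFC and 1.5 in the vHPC, and Hmga1b by 4.46, 0.82 and 2.1. Stab2 differed by 5.84, 7.03 and 7.5. The mPFC and vHPC values are log2 CPM adjusted for library sets, and the part that the different kits and steps have in this was not tested.

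**Figure D5:**
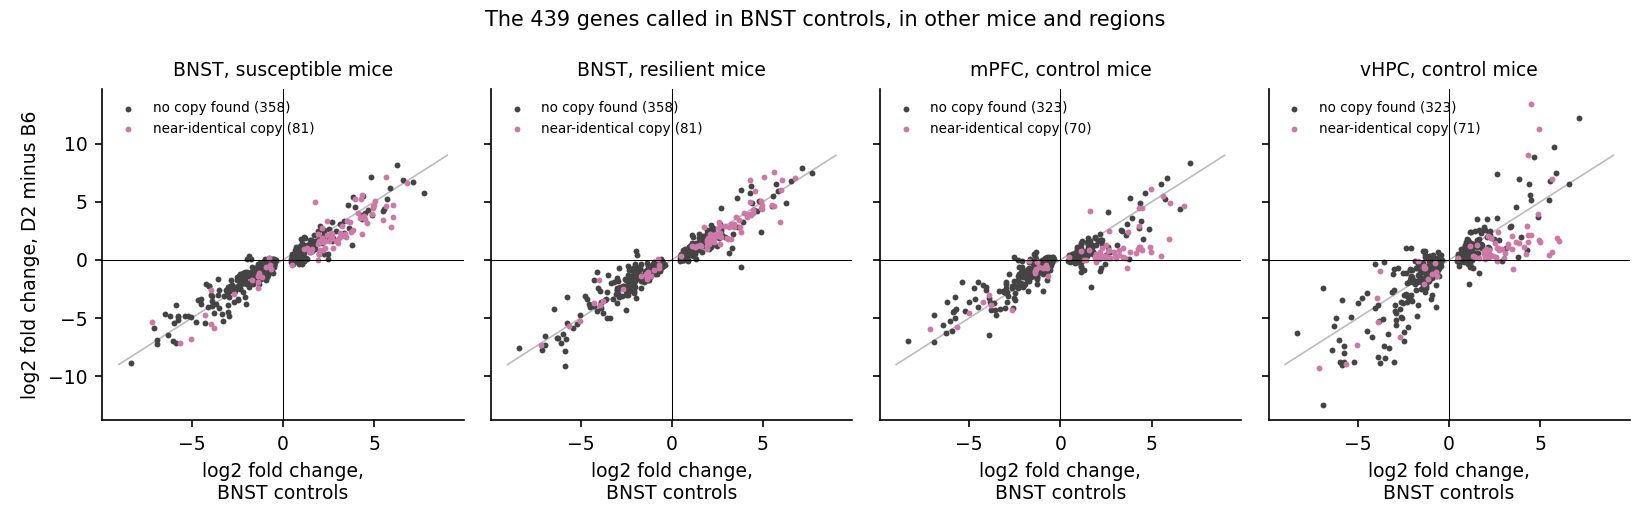
Each point is a gene called in BNST controls, with its log2 fold change there on the horizontal axis and its log2 fold change, D2 minus B6, in another group of mice on the vertical axis, and the grey line marks equal values. Genes with a near-identical copy are pink, and dark points include 4 genes that could not be searched. In both defeated groups the points lie along the line, whereas many pink points lie near 0 in the mPFC and vHPC.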

How the data were processed

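RNA of the BNST was sequenced from 28 mice, 10 of them the undefeated controls compared here. Per the authors' methods, adapters were trimmed with the FastX toolkit, PCR duplicates were removed with PRINSEQ, reads were aligned to GRCm38 with STAR and exonic reads were counted per gene with HTSeq. The BNST values were deposited by the authors as raw counts, whereas the mPFC and vHPC values were deposited as log2 CPM after filtering, voom normalization and ComBat adjustment for library sets. The strand setting and the treatment of reads that match several genes are not given in the sources used here. Library kits differed by region.

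Of 48795 genes, the 17515 that reached 1 CPM in 6 or more of the 28 libraries were kept, and counts were scaled by TMM and fitted with edgeR 4.0.16 (quasi-likelihood, robust, R 4.3.3) with a mean for each of 6 groups of strain and phenotype, so that the spread was shared (22 residual degrees of freedom). Adjusted p values are Benjamini-Hochberg values over all genes tested, called under 0.05. They set a difference against the spread between mice, which in the BNST fit came from all 28 libraries, defeated mice included. The log2 CPM of the mPFC (18946 genes) and vHPC (19559 genes) were fitted with limma 3.58.1. Means and SDs are of CPM scaled by TMM, and n is 5 per strain unless stated. The SE of an edgeR log2 fold change is an approximation, its absolute value divided by the square root of the F statistic of the test. Symbols and positions came from GENCODE M21, and 61 genes tested had no symbol. Copies were found with blastn 2.17.0, and summed pairs were compared by an exact permutation test. The fit was tested on simulated counts for the control comparison, in which 90 of 200 genes changed by 1 on the log2 scale and 172 of 200 changed by 2 were recovered among 17515, with 2 and 15 unchanged genes called. Alternatives were DESeq2 1.42.0, voom and limma, voom with ComBat (sva 3.50.0), other size factors and filters, the library set as a term, subsets of libraries, and leaving out each mouse.

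Genes are named by rule: the 10 highest and the 10 lowest by -log10(p) times log2 fold change among called genes without overlap, the 5 most abundant called genes in each direction, called members of 27 lists, the tested genes of the list of known variants (1 of them is not reported here), and called genes of the 3 runs with the most called genes. Copies of named genes, marker genes quoted as a check and members of the blood list are given beside them. The members, lists and rules were chosen with earlier results of these data known.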

Additional observations from a re-analysis of the deposited data

Results flagged for a closer look

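In groups of 5, a mouse was listed when its distance to the nearest other mouse was over 0.71 of the range of the group. Of 142 groups of named genes 20 were listed, as were 3 of 54 groups of list means, where chance lists about 1 in 20, and 13 of the 23 were D2 control replicate 2. Values are log2 CPM.

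D2 control replicate 2 was far below the other D2 controls in Rprl3 (1.03), Hmga1b (2.43), Rpsa-ps10 (1.89), Alad (3.4), Atp6v0c (2.235), C1qc (1.86), C1qb (2.6), Rpph1 (3.56) and Pkmyt1, where it had no count (-4.97). It was far above them in Nap1l5 (9.13) and Trim12a (-0.699). Its mean over cortical and hippocampal excitatory markers was 3.59 and that over clock genes was 5.66. The same library held the highest mitochondrial share of the 10, at 30.8%, and what part this has in these values was not tested.

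Of the B6 controls, replicate 1 was high in Stab2 (1.15) and Dnah6 (2.66) and low in Hba-a2 (0.92). Replicate 2 stood apart in Pcdhga11 (5.22) and in Bricd5, where it had no count (-4.97). Replicate 4 stood apart in Gm10260 (-1.96), and replicate 5 in Erbin (8.12) and in the mean over genes of GABA and glutamate transmission (6.77). In D2, replicate 1 held the lone count of Hba-a2 (-3.29) and replicate 3 was lowest in Fcrls (-0.34).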

How the results depend on the processing

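All 439 genes kept their direction with each control mouse left out, when 342 to 560 genes were called, and within library sets 1 and 2, which alone called 114 and 107. These fits reuse mice by which the 439 genes were chosen. A kept direction, also that of the named genes below, is therefore largely fixed by that choice. Other counts that moved by over 1.5 times in the control comparison were 660 with DESeq2, 179 with at least 10 CPM, 221 with only the 10 controls and 939 with ID prefixes 3 and 4. Susceptible mice gave 1450 with DESeq2, 5073 without TMM factors and 505 to 919 with a mouse left out, and resilient mice gave 490 with DESeq2 and 179 to 277. The strain difference in susceptible minus control mice gave 223 with DESeq2, 1414 without TMM factors and 0 to 109 with a mouse left out, and that in resilient mice 2 with DESeq2 and 0 throughout the latter. In the mPFC 4520 to 5490 and in the vHPC 11077 to 11375 genes were called with a mouse left out, and 1643 in the vHPC with the library set as a term. By sign alone, 428 of the 439 genes matched in resilient mice. Of the 67 named genes that were called, 66 kept their direction in every setting, 47 their call with each mouse left out and 26 in all of up to 23 settings. With prefixes 3 and 4 only, the log2 fold changes of Vipr2, Kcnj9, Mpdz and Ahr became -0.02, -0.11, -0.13 and 0.25. Among uncalled genes near 0, Mpdz turned to -0.02 without TMM factors and ran from -0.06 to 0.19 with a mouse left out, Myo5a turned to -0.01 with voom, -0.08 without TMM factors, -0.02 with ComBat and -0.16 within set 2 and ran from -0.13 to 0.1, and Ahr turned to 0.11 within set 1 and ran from -0.24 to 0.08. The cause of these changes was not tested. No paired analysis was possible because the replicate numbers name different mice of each strain and tie none of them together. At this depth and spread, changes of 1 on the log2 scale could be missed, so genes that were not called may still differ.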
